A study of Homo sapiens with 4 samples.

Results

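The genes described here belong to the Notch pathway and its Deltex branch: the receptors NOTCH1 and NOTCH2, the DNA-binding factor RBPJ, the co-activators MAML1 and MAML2, the target HES1, and the ubiquitin ligases DTX1, DTX2, DTX3 and DTX4. They were chosen by name. Each gene was represented by the probe set that the platform annotation gives to its symbol alone, and by the brightest on average over the 4 arrays where there were several, so a measured value set the choice of probe set only. Of the 10 genes listed, 9 were found in this way among 18417 genes on the array. MAML1 was not analysed here, because both of its probe sets carry the symbol LTC4S as well. The group was proposed after an earlier result of these data had brought out DTX4 for the wide gap between its hairpin and control values. The DTX4 difference is therefore given as a description, with no test.

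RNA came from NOMO-1, an established monocytic line of human acute myeloid leukaemia, transduced with lentivirus at a multiplicity of infection of 1 and collected 48 h after selection. The controls, labelled ZFX wild type, were 1 array for a lentivirus with GFP (LEN-GFP) and 1 array for a scrambled hairpin (SCR). The ZFX knock-down group was 1 array of the SH1 hairpin and 1 of the SH3 hairpin. No construct was repeated, and the labels do not say whether cultures were independent, so the error given here is the spread between constructs and arrays together. Values are log2 intensities.

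ZFX, the targeted zinc finger transcription factor, was measured first as a check of the labels. The controls were at 10.65 (LEN-GFP) and 10.66 (SCR), and the hairpins at 10.13 (SH1) and 10.12 (SH3). The hairpin mean was 69.3% of the control mean, a partial lowering (log2 difference -0.53, SE 0.10). ZFX itself did not pass the test over all genes described below (limma adjusted p = 0.797). The line's own markers were present on every array, with the lysozyme gene LYZ between 14.20 and 14.37. Of the 13 markers of monocytic leukaemia, 10 had a probe set of their own, and all 10 lay above the limit for dim genes described below. Their summed linear intensity was 54929 to 55361 in the controls and 50364 to 54795 with the hairpins, lower without overlap. The brightest genes weigh most in such a sum. Gene by gene, 5 were higher and 5 lower with the hairpins, with a median log2 difference of 0.03. The widest of the lower ones was MPO, at 12.31 on SH3 against 13.30 to 13.36 on the other arrays. Of the 10 T cell genes, 6 lay under the limit for dim genes, the T cell receptor genes CD3D, CD3E and CD3G among them. The 4 above it were CD7 at 9.40 to 9.62, PTCRA at 7.86 to 7.93, LCK at 6.72 to 6.93 and CD8A at 6.67 to 7.12. The summed T cell list (10 genes) was 1488 to 1654 in the controls and 1608 to 1614 with the hairpins. The B cell list (5 genes) did not overlap between the groups, at 1022 to 1117 in the controls and 1195 to 1232 with the hairpins. In it BLNK was at 8.74 on SH1 and 8.58 on SH3 against 8.29 and 7.66 in the controls, and MS4A1, under the limit for dim genes, was at 6.04 on SH3 against 5.33 to 5.34 elsewhere. The other 3 B cell genes did not follow, with CD79B at -0.09 without overlap, and CD79A at 0.04 and PAX5 at 0.02 with overlap. The endothelial list (5 genes) did not overlap either, at 7001 to 7170 and 7739 to 8085, with 4 of its genes under the limit and PECAM1, which myeloid cells also express, above it. The part of these markers in the results below was not tested.

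As background, Notch receptors are cell surface proteins that are cut by ADAM proteases and then by gamma-secretase when a ligand of the Delta or Jagged family on a neighbouring cell binds them. The freed intracellular part enters the nucleus, joins RBPJ and a Mastermind-like (MAML) protein on DNA, and turns on targets such as HES1, a transcriptional repressor. Deltex proteins are ubiquitin ligases that act on Notch and its trafficking, and DTX1 is itself a common readout of Notch activity in lymphocytes. RNA levels do not measure receptor cleavage, which is the step that starts the signal.

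The promoter of HES1 is shown as that of such a target, and that of DTX4 is set beside it because DTX4 had the widest difference of the 9 genes. The stretches are the 250 bases before the annotated start, from RefSeq on GRCh38.p14, plus strand, 5′ to 3′. Capitals mark matches on either strand to TGGGAA (the core that RBPJ binds), CACNAG (the N box of HES proteins), CACGNG (a site of HES and HEY proteins) or AGGCCT (the core of the ZFX motif), and a CACNAG and a CACGNG match can be the same bases.
HES1, chr3:194135898-194136147: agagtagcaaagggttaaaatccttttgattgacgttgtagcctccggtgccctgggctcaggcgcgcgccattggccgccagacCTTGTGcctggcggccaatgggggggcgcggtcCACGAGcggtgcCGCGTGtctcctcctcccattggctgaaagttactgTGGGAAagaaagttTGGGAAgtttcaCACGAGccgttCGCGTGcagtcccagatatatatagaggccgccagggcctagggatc
DTX4, chr11:59171180-59171429: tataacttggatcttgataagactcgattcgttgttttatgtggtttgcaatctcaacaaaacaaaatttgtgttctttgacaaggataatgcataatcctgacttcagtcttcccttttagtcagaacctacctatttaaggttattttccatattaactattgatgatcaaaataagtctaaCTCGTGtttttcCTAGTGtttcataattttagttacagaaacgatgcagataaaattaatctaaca

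The HES1 stretch held 2 exact matches to the RBPJ core in the same orientation, at 84 to 79 and at 70 to 65 bases before the start. It also held 3 N boxes and 4 HES and HEY sites, of which 2 were shared, and 0 ZFX cores. In the DTX4 stretch there were 0 RBPJ cores, 2 N boxes and 1 HES and HEY site, the last shared with an N box, and 0 ZFX cores. The table lists another start of DTX4 at position 59172132, where the stretch held 1 HES and HEY site and 0 of the other motifs. Among 34943 stretches of this length in the table, 20.9% held the RBPJ core, 2.89% held it at least 2 times, 32.1% held the N box, 26.6% the HES and HEY site and 9.19% the ZFX core. An RBPJ core also stood in 1 stretch of DTX2 and, 2 times, in 1 of the 5 stretches of RBPJ. The ZFX core stood in another stretch of RBPJ and in no other of the 13 stretches of the 8 listed genes that had an entry. DTX1 and DTX3 had no entry. A match describes letters only, and binding was not measured here. RBPJ sites that differ from TGGGAA were not searched for, so the number and arrangement of RBPJ sites were not settled.

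In the comparison of the hairpins with the controls, limma was run on the 12892 genes left after the 30% of genes with the lowest mean over the 4 arrays were left out, which set a limit of 6.70 on the log2 scale. All 9 genes passed this limit, with DTX1, DTX3 and HES1 close to it. No value of the deposited table marks a gene as detected, so a level near the limit may be background. None of the 8 genes tested passed an adjusted p of 0.05, and 0% of all genes tested did. At an unadjusted p under 0.05 there was 1 of these 8, NOTCH2, against 779 of all genes (6.04%, with 2.78% higher and 3.26% lower). The median difference over the 9 genes was 0.13 on the log2 scale, beside -0.0029 over all genes tested.

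**Figure D1:**
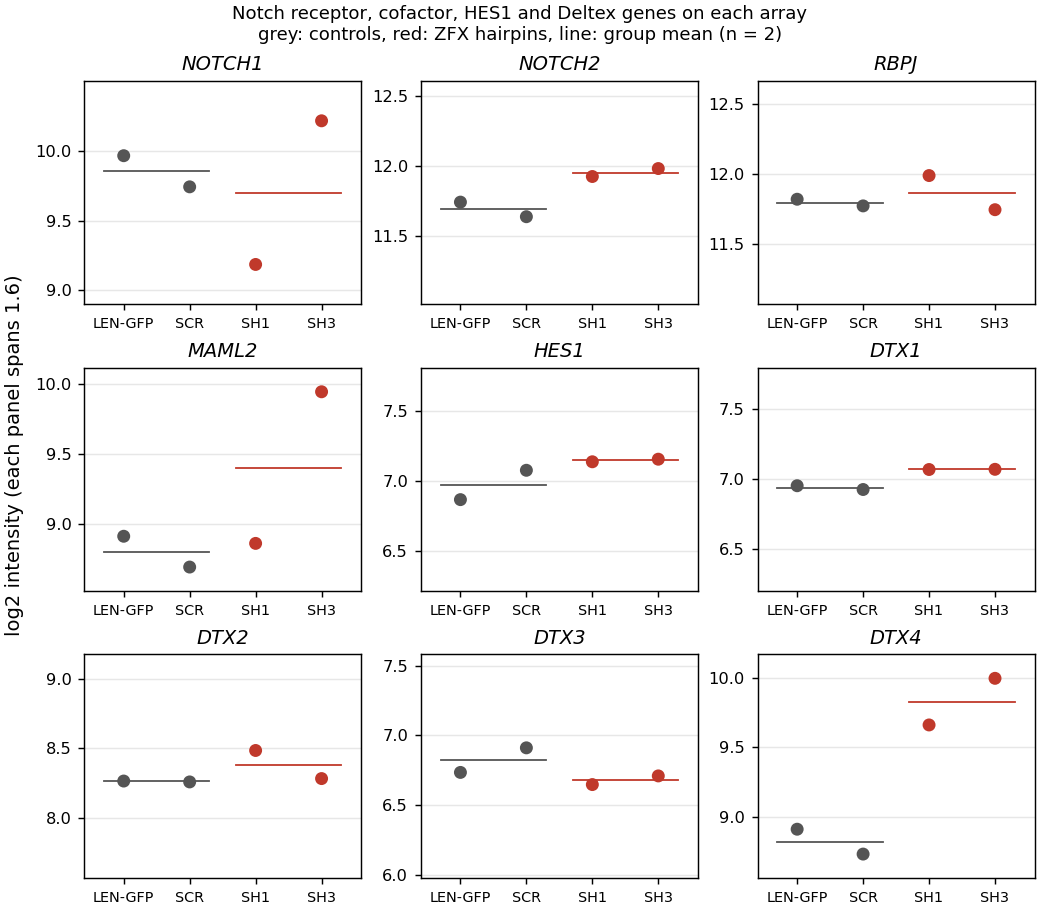
Log2 intensity of the 9 genes on each of the 4 arrays, with controls in grey, ZFX hairpins in red and a line for the mean of each group of 2 arrays. Every panel spans the same range, so DTX4 stands out with both hairpins above both controls, while NOTCH1 and MAML2 differ mostly between SH1 and SH3.

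The receptors had separate patterns over the arrays. NOTCH1, the receptor that is often mutated to an active form in T cell leukaemia, had a log2 intensity of 9.96 on LEN-GFP, 9.74 on SCR, 9.19 on SH1 and 10.21 on SH3. In RNA from whole cultures, fewer cells with a transcript and less of it per cell cannot be told apart. SH1 was the lowest array and SH3 the highest, so the controls lay between the hairpins and the groups overlapped. The difference between the group means was -0.15 (SE 0.35, 95% interval -1.06 to 0.75, limma adjusted p = 0.944). It was formed from hairpins on opposite sides, at -0.67 for SH1 and 0.36 for SH3 from the control mean. The distance of 1.03 between SH3 and SH1 was matched or passed by 1.66% of the genes tested, where the median distance was 0.16. SCR and LEN-GFP, by contrast, were 0.22 apart on NOTCH1.

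NOTCH2, a receptor with a known role in myeloid and B cells, was higher on both hairpin arrays, at 11.93 on SH1 and 11.98 on SH3 against 11.74 on LEN-GFP and 11.64 on SCR. The groups did not overlap and the nearest arrays were 0.18 apart. The hairpin mean was 120% of the control mean, a log2 difference of 0.26 (SE 0.09, 95% interval 0.03 to 0.50, 2 against 2 arrays). limma's unadjusted p was 0.0342 and its adjusted p 0.797. A brighter NOTCH2 probe set was not used because it carries 3 symbols. It was at 12.19 on both controls, 12.29 on SH1 and 12.38 on SH3, a smaller difference of 0.14. NOTCH2 has near-identical partial copies in the genome (the NOTCH2NL genes), and how far the probe set used tells them apart was not examined.

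RBPJ, the factor that all Notch receptors need on DNA, was at 11.82 on LEN-GFP, 11.77 on SCR, 11.99 on SH1 and 11.75 on SH3. SH1 was the highest and SH3 the lowest array, and the difference was 0.07 (SE 0.11, 95% interval -0.22 to 0.37, limma adjusted p = 0.912). A second, dimmer RBPJ probe set had the same order of the hairpins, with 8.20 on SH1 and 7.62 on SH3, against 7.89 on LEN-GFP and 8.13 on SCR. Its difference was -0.10, so the sign for RBPJ depended on the probe set, and the mean of both gave -0.014. Only the platform annotation ties the dimmer probe set to RBPJ, and whether it reads RBPJ itself was not examined.

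MAML2, a Mastermind-like co-activator that completes the complex of RBPJ and the Notch fragment, was higher on SH3 alone. It was at 9.94 there, against 8.86 on SH1, 8.91 on LEN-GFP and 8.69 on SCR. SH1 lay between the controls, so the groups overlapped, and the difference of 0.60 had an SE of 0.37 (95% interval -0.35 to 1.55, limma adjusted p = 0.801). Against the mean of the controls, SH3 was 2.21-fold and SH1 1.04-fold, and 1.40% of the genes tested had hairpins as far apart.

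Without SH1, limma called MAML2 higher on SH3 (difference 1.14, adjusted p = 0.00216), and this fit called 13.2% of all genes, 6.27% higher. It assumes that the lone SH3 array varies like the control pair. With SH3 left out, MAML2 differed by 0.06 on SH1 (limma adjusted p = 0.980), in a fit that called 0.419% of all genes. Both fits use the same controls. MPO, the myeloperoxidase gene and a marker of the line, was also apart on SH3, at 12.31 against 13.30 to 13.36 on the other arrays, and its part in the MAML2 value was not tested. Other markers of the line lay on both sides of the control mean on SH3. ITGAM was above it by 0.37, CD14 by 0.26 and CSF1R by 0.21. LYZ, at -0.13, and SPI1, at -0.01, were below it like MPO, and the rest were above it. The median of the 10 was 0.09. CSF1R was called higher by limma on SH1 when SH3 was left out (difference 0.96, adjusted p = 0.0334).

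HES1, the repressor whose promoter is shown above, was dim and close in all arrays, at 6.87 on LEN-GFP, 7.08 on SCR, 7.14 on SH1 and 7.16 on SH3. Both hairpins lay above both controls, by 0.06 at the nearest, while the controls were 0.21 apart. The difference was 0.18 (SE 0.10, 95% interval -0.08 to 0.43, limma adjusted p = 0.797), smaller than the distance between the controls. The 5 genes with the most similar pattern over the 4 arrays, by the distance between log2 values centred on each gene's mean, were TBX21, ANKDD1A, ATP6V1C1, UGP2 and DIABLO. Their distances to HES1 were 0.025 to 0.032, and the low LEN-GFP value that they share with it follows from that choice. With 4 arrays and a small range, close patterns arise easily among 12892 genes.

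Among the Deltex ligases, DTX4 had the only difference over 0.2 on the log2 scale. DTX4 was at 8.91 (LEN-GFP) and 8.74 (SCR), and at 9.66 (SH1) and 9.99 (SH3). Both hairpins were above both controls, with 0.75 between the nearest arrays. The hairpin mean was 200.3% of the control mean (log2 difference 1.00, SE 0.16), with 1.78-fold on SH1 and 2.25-fold on SH3. Of all genes tested, 0.295% had a difference at least as wide in either direction, which describes the value that brought the gene out. With any array left out, the difference lay between 0.84 and 1.17. It could not fall below the 0.75 between the nearest arrays, so this range describes the same gap and is no separate support.

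The 5 genes most like DTX4 over the 4 arrays were CHI3L1, KIAA0513, KCNK10, GCNT2 and ADGRE4P, at distances of 0.17 to 0.24. CHI3L1, which codes for a secreted macrophage protein that binds chitin, was at 11.99 (LEN-GFP) and 11.92 (SCR), and at 12.76 (SH1) and 13.29 (SH3). GCNT2, an enzyme that branches sugar chains, was at 9.23 and 9.18 in the controls, against 9.86 on SH1 and 10.14 on SH3. In each of these genes SH3 was the highest array and SH1 the next. That order was set by choosing genes like DTX4, so it is not a separate result.

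The other Deltex genes lay much closer together. DTX1, which Notch induces in lymphocytes, was at 6.95 on LEN-GFP, 6.92 on SCR and 7.07 on each hairpin. The groups did not overlap, and the difference was 0.13 (SE 0.07, 95% interval -0.06 to 0.32, limma adjusted p = 0.797). DTX2, which shares with DTX1 and DTX4 the WWE domains that bind the Notch ankyrin repeats, was at 8.27 on LEN-GFP and 8.26 on SCR, with 8.49 on SH1 and 8.28 on SH3. SH3 was only 0.02 above the nearest control, and the difference of 0.12 (SE 0.12, 95% interval -0.19 to 0.43, limma adjusted p = 0.862) came from SH1.

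DTX3, which lacks the WWE domains, was the Deltex gene with lower hairpin values. It was at 6.73 on LEN-GFP, 6.91 on SCR, 6.65 on SH1 and 6.71 on SH3. The groups were 0.03 apart at the nearest, less than the 0.18 between the controls, and the difference was -0.14 (SE 0.09, 95% interval -0.37 to 0.08, limma adjusted p = 0.801). DTX1 and DTX3 lie close to the limit for dim genes, so their narrow intervals say little about a change in RNA.

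**Figure D2:**
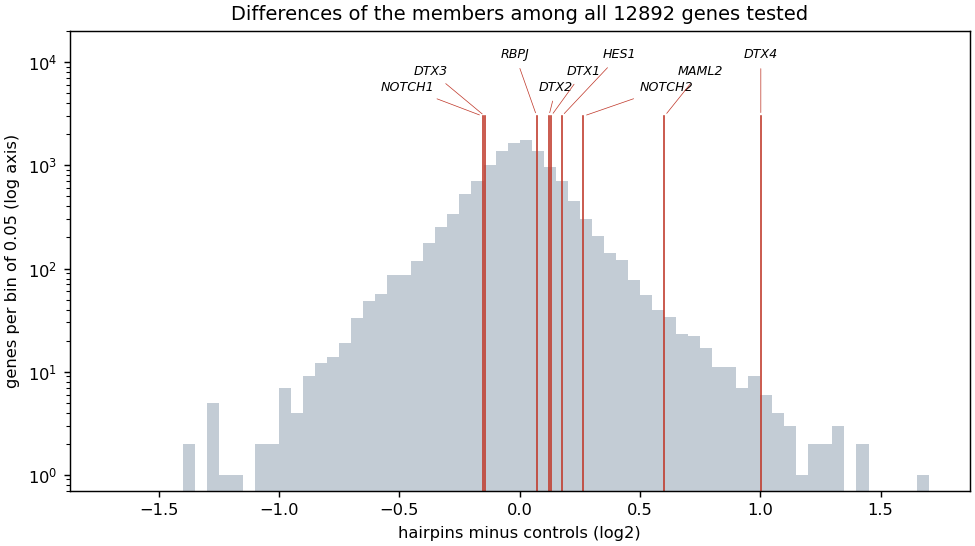
Number of genes per bin of the hairpin minus control difference (log2) for the 12892 genes tested, on a log axis, with a red line for each of the 9 genes. DTX4 at 1.00 and MAML2 at 0.60 lie on the thin right side, and the other 7 lie between -0.15 and 0.26, where most genes lie.

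Counted together, the groups did not overlap for 6 of the 9 genes, 5 higher with the hairpins (DTX1, DTX2, DTX4, HES1 and NOTCH2) and 1 lower (DTX3). Of all genes tested, 37.2% did not overlap, 18.2% higher and 19.0% lower. DTX4 is among these genes through the same contrast, so the count is given as a description. Set apart by array, the median of the 9 genes was 0.17 on SH1 and 0.18 on SH3 from the mean of the controls, beside medians of -0.0006 and -0.0015 over all genes tested.

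**Figure D3:**
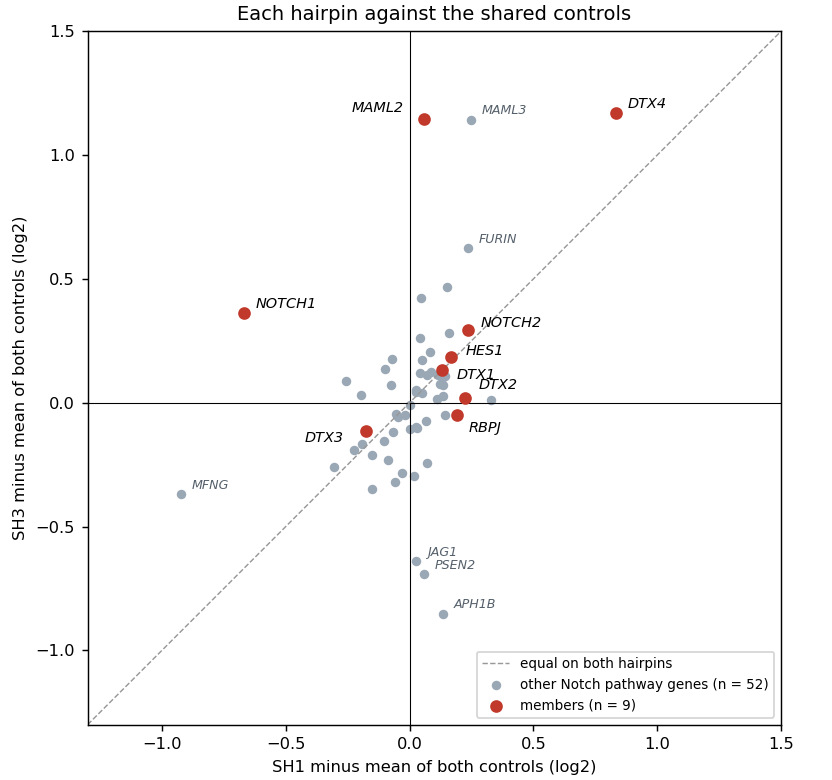
Difference of SH1 (horizontal axis) and of SH3 (vertical axis) from the mean of both controls, in log2, for the 9 genes in red and for 52 other Notch pathway genes in grey-blue, with a dashed line where both hairpins would be equal. DTX4 is high on both axes, MAML2 is high on SH3 alone, MAML3 is at 1.14 on SH3 and 0.25 on SH1, NOTCH1 is low on SH1 and high on SH3, and MFNG is lowest on SH1.

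The other genes of the pathway were taken by role, from ligands to targets. In each role up to 3 genes were named from those without overlap, so their lack of overlap was set by that choice. Of 59 listed, 55 had a probe set of their own and 52 passed the limit for dim genes. None passed an adjusted p of 0.05 in limma, and at an unadjusted p under 0.05 there were 0 higher and 2 lower, where 2.78% of all genes tested were higher and 3.26% lower. Their median difference was -0.0027, with 25 higher and 27 lower, and the groups did not overlap for 25 of them (14 higher, 11 lower), beside 37.2% of all genes tested (18.2% higher, 19.0% lower).

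Enzymes that put sugars on the Notch receptor had the lowest median of these roles, -0.15 over 6 genes. Of these, 5 were lower, beside 6544 of all 12892 genes tested. Among the 5, POGLUT1 was at -0.20 on SH1 and 0.03 on SH3 from the control mean. EOGT, also among them, was at 0.07 and -0.24, and the groups overlapped for both genes. MFNG, the Manic fringe glycosyltransferase, was at 9.85 on SH1 and 10.40 on SH3, against 10.77 on LEN-GFP and 10.78 on SCR. The difference was -0.65 (SE 0.20, limma unadjusted p = 0.0254, adjusted p over all genes 0.797), and SH1 was the lower hairpin. Against the control mean, MFNG differed by -0.92 on SH1 and by -0.37 on SH3. It was named for its wide difference on these same arrays, so these values are a description. RFNG, the Radical fringe, differed by -0.28 (SE 0.11, limma unadjusted p = 0.0464), and POFUT1, which adds the first fucose, by -0.21. Both had hairpins below both controls. LFNG, the Lunatic fringe, was at 8.53 on SH1 and 8.77 on SH3, against 8.68 and 8.51 in the controls.

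Ligands differed little between the groups, with a median of -0.0033 over the 5 tested. DLL1 differed by 0.12, JAG2 by -0.16 and DLK1, a non-canonical ligand, by 0.03. These were the 3 of the 5 without overlap of the groups, beside 37.2% of all genes tested. JAG1, the Jagged ligand, was at 7.81 on SH3, against 8.48 on SH1, 8.52 on LEN-GFP and 8.38 on SCR. The receptors NOTCH3 and NOTCH4 differed by 0.10 and 0.11, and their hairpin arrays lay above the controls by 0.03 and 0.04 at the nearest.

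Receptor cleavage genes lay on both sides of the controls. FURIN, the convertase that cuts the receptor precursor, was 0.24 above the control mean on SH1 and 0.62 on SH3, a group difference of 0.43 (SE 0.19). ADAM17, a surface protease, was 0.15 above it on SH1 and 0.47 on SH3, a group difference of 0.31 (SE 0.14). Of the gamma-secretase genes, PSENEN differed by -0.13 with no overlap. APH1B and PSEN2 were lower on SH3 alone, at -0.85 and -0.69 there and at 0.13 and 0.06 on SH1. Without SH1, limma called FURIN and ADAM17 higher, and APH1B, PSEN2 and JAG1 lower, on SH3 (adjusted p 0.00582 to 0.0368), beside the 13.2% of all genes called in that fit.

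MAML3, the relative of MAML2, had the widest difference among the 14 co-activators and co-repressors tested. It was at 9.38 on SH3 and 8.49 on SH1, against 8.37 on LEN-GFP and 8.10 on SCR. The difference was 0.70 (SE 0.31, limma adjusted p over all genes 0.797), with SH3 at 1.14 and SH1 at 0.25 from the control mean. The groups did not overlap, by 0.12 at the nearest. SNW1, a partner of the RBPJ complex, differed by -0.25 and the co-repressor CTBP2 by -0.19, both without overlap. Against the mean of the controls, MAML3 was 2.21-fold on SH3 and 1.19-fold on SH1. It was named for its wide difference on these same arrays, so these values are a description.

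Regulators of endocytosis and ubiquitin had a median of 0.05 over 10 genes. The ligase ITCH differed by -0.18 and DTX3L, a Deltex relative that pairs with a PARP enzyme, also by -0.18, and the adaptor NUMBL by 0.13. These 3 were picked from the 6 of the 10 whose groups did not overlap, beside 37.2% of all genes tested. None of the 3 passed the test. The remaining HES and HEY genes and NRARP, a feedback inhibitor induced by Notch, had a median of -0.0028 over 7 genes. The groups overlapped for all 7, NRARP was at -0.05 and HES4 at 0.15, and HEY1 and HEY2 lay under the limit for dim genes.

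**Figure D4:**
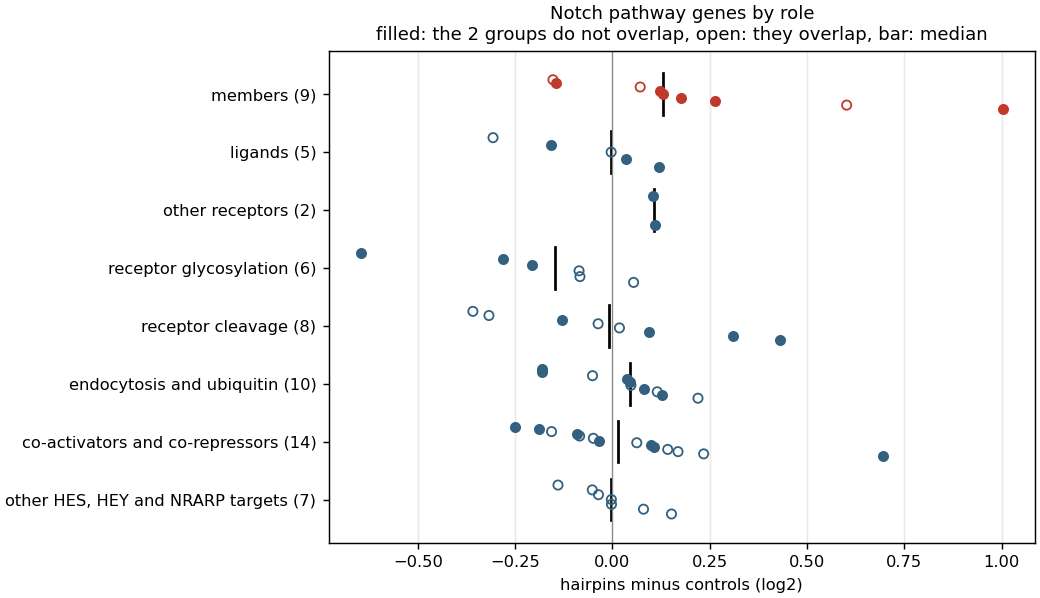
Hairpin minus control difference (log2) of each gene, by role, with filled points where the groups of 2 arrays do not overlap, open points where they do, and a bar for the median. DTX4 at 1.00, MAML3 at 0.70 and MFNG at -0.65 lie farthest from 0, and the 7 other HES, HEY and NRARP targets lie between -0.14 and 0.15.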

How the data were processed

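Per the submitters' processing notes, arrays were processed with Affymetrix Expression Console 1.1 and RMA. The authors deposited linear intensity values for 33297 probe sets. How RMA's log2 output became linear is not stated. Median intensity was 184.8 to 189.8, and the number of arrays limits the precision. Here log2 was taken without an offset. The platform annotation gave 1 gene symbol to 19460 probe sets, several to 1754 and none to 12083. The 30% dimmest genes (5525) were left out. limma 3.58.1 (R 4.3.3) was fitted to the other 12892 genes, with eBayes and an intensity trend. P-values were two-sided and adjusted by Benjamini-Hochberg over all of them. The fit had 2 residual degrees of freedom and a prior of 2.95. Each SE is moderated, so it draws on other genes of like intensity as well as on the gene's own spread. Without moderation the SE was 0.01 for ZFX, 0.01 for DTX1 and 0.53 for NOTCH1, against 0.10, 0.07 and 0.35 with it. Fits with 1 array left out assume that a lone array varies like the other pair. The main fit was run on simulated data, where the check required that set differences were recovered and that unchanged genes averaged near 0. The fits with 1 array left out, the counts without overlap and the promoter matches were not checked in this way. Named pathway genes were up to 3 per role, those of largest difference among genes without overlap. JAG1, LFNG, POGLUT1, EOGT, APH1B, PSEN2, NRARP and HES4, and the markers named singly, were added after their values were seen. The members and lists were chosen with earlier results of these data known. RefSeq promoters were matched by symbol.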

Additional observations from a re-analysis of the deposited data

How the results depend on the processing

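ZFX differed by -0.54 to -0.52 with each array left out, and passed limma's test without SH1 (adjusted p = 0.0181). The adjusted p lay between 0.0181 and 1 over all alternatives. The count of genes called was 0 to 1698 with each array left out (54 without SH3, 1698 without SH1, 0 without either control) and 0 under every other alternative run. The median over the 9 genes was 0.19 with the lowest 50% of genes left out, where 6 of the 9 were tested, 0.12 with an offset of 16 before log2, and 0.12 to 0.18 with each array left out. The median over the other pathway genes was 0.041 with the lowest 50% left out and -0.0009 to 0.029 with each array left out.

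RBPJ changed sign with the mean of its probe sets (-0.014) and without SH1 (-0.051, and 0.19 without SH3), and NOTCH1 without SH1 (0.36, and -0.67 without SH3). MAML2 passed limma's test only without SH1, at 1.14. DTX4, which was not tested, lay between 0.98 and 1.02 under the 8 alternatives that kept all arrays. DTX1, DTX2, DTX3, HES1 and NOTCH2 kept their direction and their side of the threshold under each alternative that tested them, with HES1 at 0.07 to 0.28, NOTCH2 at 0.21 to 0.32 and DTX3 at -0.23 to -0.06 with each array left out. DTX1, DTX3 and HES1 were not tested with the lowest 50% left out. The cause of these changes was not tested. The alternatives were no filter or a filter of 50%, quantile normalization, centring on the median, the offset, the mean of probe sets, no intensity trend and no moderation. No paired analysis was possible because the labels give no replicate numbers.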
